A study of Caenorhabditis elegans with 609 samples.

Results

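The proteasome subunit genes of *C. elegans* are the genes whose Ensembl WBcel235 name begins with pas-, pbs-, rpn- or rpt-. The rule found 33 genes, of which 14 encode the core particle and 19 the regulatory particle. All 33 passed the filter on expression, among 16260 genes that did so. They were measured by poly(A) RNA sequencing of whole synchronized young adult hermaphrodites, harvested after the first embryo was seen and fed *E. coli*. The animals were wild strains, each an isogenic line from natural populations, and the laboratory strain N2, with no treatment and no engineered allele. The values used are those of 559 independently grown cultures, 3 for each of 145 strains and 2 for each of the other 62 strains. Each strain was set against the mean of all other strains, so that no strain serves as a control.

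The proteasome is the protease that degrades proteins tagged with ubiquitin chains. Its core particle is a stack of rings in which alpha subunits (PAS) form the gated ends and beta subunits (PBS) the chamber that holds the active sites. The regulatory particle binds the ends of the core, with a base whose RPT subunits form a ring of ATPases that unfolds the substrate and a lid of RPN subunits that removes the ubiquitin. In *C. elegans*, proteasome genes are induced together by the transcription factor SKN-1A when proteasome function is impaired. The germline of the adult hermaphrodite, in which oocytes are made and provisioned, depends on the proteasome for meiosis and for the turnover of maternal proteins.

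Estimated counts totalled 15461168 to 280262722 per culture, with a median of 28772489 over the 608 cultures from which the 559 were selected. A member had between 199.2 and 119730 estimated counts in a culture. Across cultures, the median deviation of the members had r = 0.01 with the log10 of the total. In whole animals, fewer cells of a type and less RNA per cell cannot be told apart. The defining genes of sperm, yolk-making intestine, oocytes and germline, body wall muscle and neurons were all measured, while only 2 of 7 male genes passed the filter, with a summed level of 0.022 to 2.92 TPM per culture.

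The level of each member is given as the mean normalized TPM (a transcript's share of the library per unit of its length) with the SD of the strain means (n = 145 strains with 3 cultures and 62 with 2). Together the 33 genes took 0.761% of the normalized TPM. The genes lie on 5 chromosomes, with 10 on I, 7 on II, 8 on III, 3 on IV and 5 on V.

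In the alpha ring, pas-3 and pas-5 were highest, at 355.0 ± 25.6 and 355.0 ± 38.2 TPM, and pas-2 had 329.6 ± 30.0 TPM. The other alpha genes were lower, with 268.7 ± 21.5 TPM for pas-4, 267.6 ± 21.6 TPM for pas-6, 237.1 ± 14.9 TPM for pas-1 and 220.6 ± 16.7 TPM for pas-7. In the beta ring, pbs-1 had the highest level of all members, 414.4 ± 40.7 TPM. The gene of the subunit with the chymotrypsin-like site, pbs-5, had 332.6 ± 24.6 TPM and pbs-4 had 327.3 ± 30.6 TPM. The other beta genes lay close together, with 245.7 ± 21.7 TPM for pbs-2, 242.4 ± 16 TPM for pbs-3, 237.6 ± 15.2 TPM for pbs-6 and 235.1 ± 18.7 TPM for pbs-7, which differ by less than their SDs.

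Most genes of the regulatory particle were lower than those of the core. Among the ATPases, rpt-2 had 227.2 ± 14.4 TPM, rpt-1 211.2 ± 17.4 TPM, rpt-5 188.8 ± 13 TPM, rpt-4 187.3 ± 13.6 TPM, rpt-3 167.2 ± 11.4 TPM and rpt-6 113.6 ± 8.84 TPM. The base also holds its large scaffold subunits, with 155.3 ± 16.6 TPM for rpn-1 and 138.0 ± 14.1 TPM for rpn-2, and its ubiquitin receptors, with 138.5 ± 9.15 TPM for rpn-13 and 121.2 ± 7.99 TPM for rpn-10. In the lid, the gene of the deubiquitinase rpn-11 had 227.3 ± 22.3 TPM, and rpn-7 was close to it with 223.9 ± 14.3 TPM. The lid genes rpn-9, rpn-3, rpn-8, rpn-5 and rpn-12 followed with 197.1 ± 16.6, 194.4 ± 12.2, 181.5 ± 12.6, 174.8 ± 13.9 and 151.9 ± 11.8 TPM in that order. The lid subunit RPN-6, which clamps the lid to the core, is encoded by a pair of genes, of which rpn-6.1 had 117.9 ± 10.2 TPM and rpn-6.2 the lowest level of all members, 15.6 ± 2.79 TPM. The median level was 268.1 TPM over the 14 core genes and 174.8 TPM over the 19 regulatory genes.

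**Figure D1:**
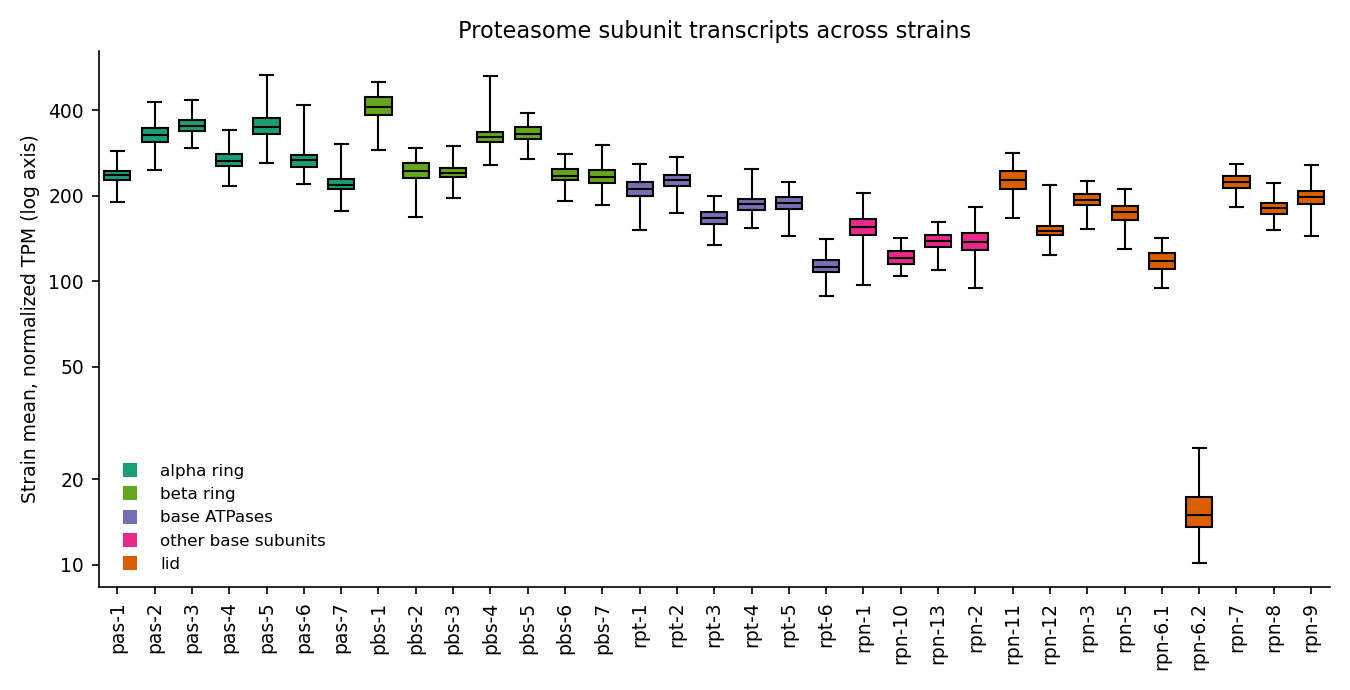
Normalized TPM (log axis) of the 33 members, each box holding the strain means with the quartiles, a line at the median and whiskers from the lowest to the highest strain, coloured by subcomplex. The core genes lie above most regulatory genes, pbs-1 is highest at a mean of 414.4 TPM and rpn-6.2 is lowest at 15.6 TPM.

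For the members at the ends of this order, pbs-1 ran over the 559 cultures from 236.0 TPM through a median of 414.3 TPM to 580.3 TPM. Its highest strain was DL226, with 417.1, 516.4 and 580.3 TPM, and its lowest NIC513, with 236.0, 338.3 and 296.4 TPM. The level of pas-3 ran from 235.3 through 351.1 to 516.7 TPM. The ATPase gene rpt-6 ran from 81.4 through 113.3 to 164.1 TPM, with 136.0, 146.6 and 140.7 TPM in its highest strain JU847 and 84.8, 92.7 and 89.4 TPM in its lowest strain NIC513. In both strain pairs the cultures did not overlap, although the strains were picked as the extremes of all strains.

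How much the members differed among strains was measured as broad-sense heritability (H2), the share of the variance of log2(normalized TPM + 0.5) that lies between strains. Errors of H2 are jackknife SEs over strains. The median H2 of the 33 members was 0.293 (SE 0.050), against 0.563 over all 16260 genes, and each of the 33 lay below that median. Of the members, 4 were over 0.5, whereas 61.3% of all genes were. Abundant genes had lower H2, with a median of 0.457 over the 1418 genes with a mean of at least 100 TPM, which include 32 members. The members' strain means spread little, with a median SD of 0.111 on the log2 scale, against 0.367 for all genes and 0.1998 for the abundant genes. Cultures of a strain also spread little, with a median residual SD of 0.116, against 0.273 for all genes and 0.190 for the abundant genes.

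The size of this gap depended on the scaling of the libraries. With raw TPM, the members' median H2 was 0.480 against 0.525 for all genes, and 27 of 33 members lay below. With CPM (counts scaled to the library total, without length) and TMM factors (a trimmed mean of ratios), it was 0.579 against 0.589, with 19 of 33 below. With counts divided by median-of-ratios factors, it was 0.494 against 0.578, with 25 of 33 below. The median SD of strain means was lower in the members than in all genes under each of these scalings, at 0.201 against 0.351, 0.224 against 0.332 and 0.173 against 0.337. The number of members with an H2 over 0.5 moved most, to 12 with raw TPM, 25 with CPM and 15 with median-of-ratios factors, and to 0 when all 608 cultures were used.

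A test of all strains at once (edgeR, quasi-likelihood) called all 33 members (adjusted p under 0.05), but it called 99.5% of all genes, so that the count does not set the members apart. Their F ran from 2.97 to 8.04.

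**Figure D2:**
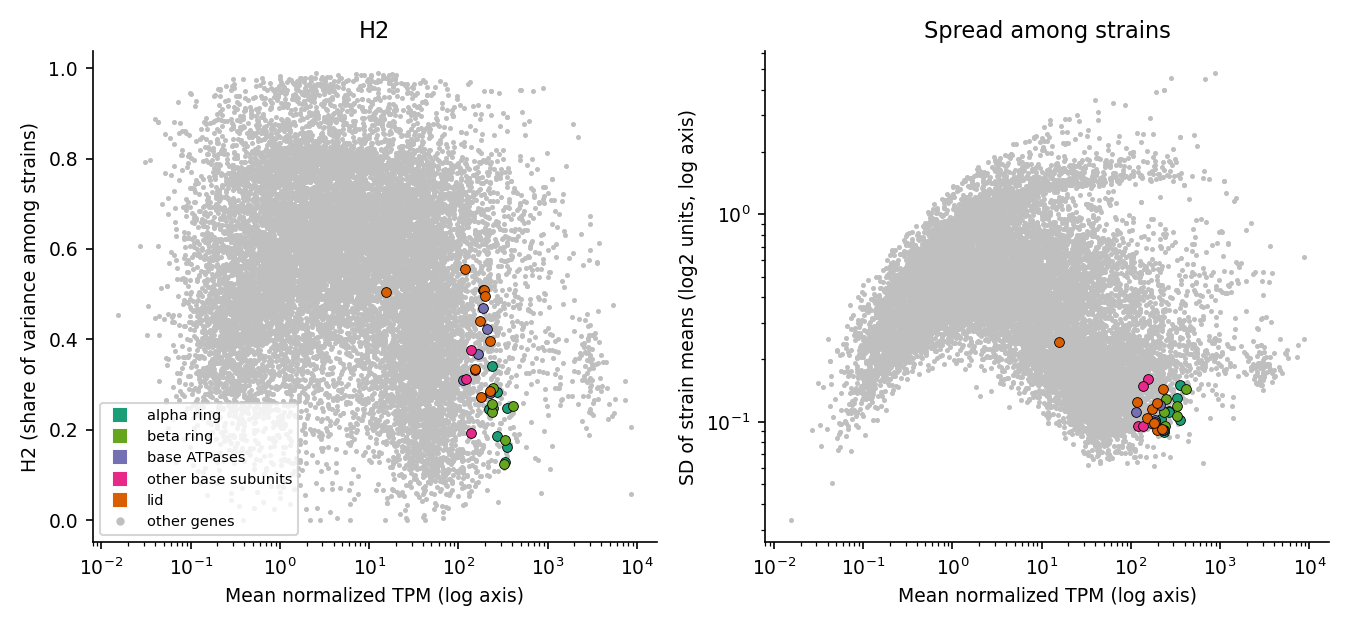
H2 (left) and SD of strain means on the log2 scale (right) against mean normalized TPM (log axis) for all 16260 genes in grey and the 33 members in colour. The members sit low in both panels, with a median H2 of 0.293 and a median SD of 0.111.

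Among the members, H2 was highest in genes of the regulatory particle, but their strain means did not spread more. The median SD of strain means was 0.104 (log2) in the regulatory genes and 0.111 in the core genes. The median residual SD among cultures was 0.106 in the regulatory genes, against 0.137 in the core genes. The median H2 was 0.439 over the 9 lid genes, 0.395 over the 6 ATPases and 0.322 over the other 4 base genes, against 0.246 over the 7 alpha genes and 0.249 over the 7 beta genes. The member with the highest H2, 0.555 (SE 0.047), was rpn-6.1 (WBcel235 III:6959110-6962001, minus strand). Over the cultures it ran from 78.4 through 116.8 to 186.4 TPM. Its highest strain QX1794 had 134.6 and 143.4 TPM and its lowest strain JU2853 had 78.4 and 110.8 TPM, which do not overlap.

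The lid scaffold gene rpn-3 (III:8447353-8449346, plus strand) had an H2 of 0.510 (SE 0.052). It ran from 141.8 through 193.8 to 257.7 TPM, with 226.7 and 223.5 TPM in strain MY772 and 157.4, 160.6 and 141.8 TPM in NIC513. The ATPase gene rpt-5 (I:5741868-5743571, minus strand) had an H2 of 0.509 (SE 0.048). Its levels were 139.1, 188.0 and 254.0 TPM at the lowest, median and highest culture, and the cultures of its highest strain NIC277 (202.2, 254.0 and 213.6 TPM) lay above all cultures of NIC513 (139.1, 150.5 and 142.4 TPM). The second RPN-6 gene, rpn-6.2 (III:8999817-9001999, minus strand), had an H2 of 0.505 (SE 0.044) and the widest range of strain means among these 4 genes. It ran from 8.94 through 15.1 to 27.9 TPM, with 27.9, 24.8 and 24.8 TPM in JU3140 and 10.3 and 10.01 TPM in NIC256.

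The lowest H2 was that of pbs-4, at 0.125 (SE 0.063), for a beta subunit gene that ran from 215.5 through 321.3 to 758.6 TPM. The 3 cultures of its highest strain, JT11398, were far apart, at 459.5, 371.6 and 758.6 TPM, while its lowest strain NIC1 had 235.4 and 278.9 TPM. For pas-2, with an H2 of 0.128 (SE 0.055), the range was 195.2 through 324.9 to 530.7 TPM. JT11398 was again highest, with 372.3, 430.4 and 478.6 TPM, and JU323 lowest, with 240.6, 252.4 and 248.7 TPM. These cultures did not overlap. For pas-3, with an H2 of 0.161 (SE 0.051), AB1 had 464.1, 402.9 and 438.1 TPM and NIC1 had 269.6 and 318.6 TPM. These 3 core genes were thus not constant, but most of their variance lay among cultures of a strain. Leaving out 1 culture number at a time took the H2 of each of the 3 to 0.000 at its lowest.

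Members differed in their number of expressed transcripts. Of the 33 genes, 15 had 1 expressed transcript and 18 had more. Single transcripts had a median H2 of 0.174 in the members and 0.335 over all transcripts. The main transcript of rpn-6.1, F57B9.10b.2, carried 87.0% of the gene's TPM, with an H2 of 0.503, and that of rpn-6.2, F59B2.5a.1, carried 83.3%, with an H2 of 0.574. In pas-4 the division between transcripts varied without regard to strain, with 76.5% of its TPM in C36B1.4.2 and 23.5% in C36B1.4.1, an H2 of 0.000 for both and a residual SD of 1.74 on the log2 scale for C36B1.4.1. In the annotation, 10 members overlap other genes (pas-7, pbs-3, pbs-4, pbs-7, rpn-7, rpn-10, rpn-11, rpt-2, rpt-4 and rpt-6), in 1 of them, pbs-7, on the same strand. These are overlaps of whole gene spans, and whether the transcripts share sequence was not checked. Use of the strand in counting is not given in the sources used here, so any shared reads cannot be told apart.

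The members moved together across strains. The median Pearson r of their 528 pairs over the strain means was 0.612 (SE 0.030), against 0.065 over pairs of all genes (quartiles −0.24 and 0.40) and 0.108 over pairs of the abundant genes. Of the pairs, 496 were positive and 351 over 0.5. Highest were pas-2 with pas-3, at 0.921, and the base scaffolds rpn-1 with rpn-2, at 0.917. Among cultures within strains the median was 0.509, against 0.051 for all genes. Genes of the same library share its depth and its scaling, so these values are descriptions.

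Pairs within the rings and the base were closer than pairs of core and regulatory genes, while those within the lid, which holds rpn-6.1 and rpn-6.2, were not. All lid pairs of rpn-6.2 were negative, from −0.15 with rpn-8 to −0.69 with rpn-6.1. Lid pairs without the RPN-6 genes ran from 0.243 (rpn-11 with rpn-12) to 0.886 (rpn-5 with rpn-7). The median r was 0.777 within the alpha ring, 0.655 within the beta ring, 0.796 within the ATPases, 0.8002 within the other base genes and 0.552 within the lid, against 0.561 between core and regulatory genes. The members that followed the rest least were rpt-6 (0.351), pbs-4 (0.318), rpn-6.1 (0.318) and rpn-6.2 (−0.16), the last of which was negative with 27 of the 32 others. Pairs were closer under the other scalings, with a median r of 0.883 with raw TPM, 0.907 with CPM and 0.846 with median-of-ratios factors. Within single sequencing pools, in the 7 pools that held 54 to 93 of the cultures, the median r ran from 0.481 to 0.700. Here and below, values within pools are over single cultures and not over strain means, so the measures are not alike.

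**Figure D3:**
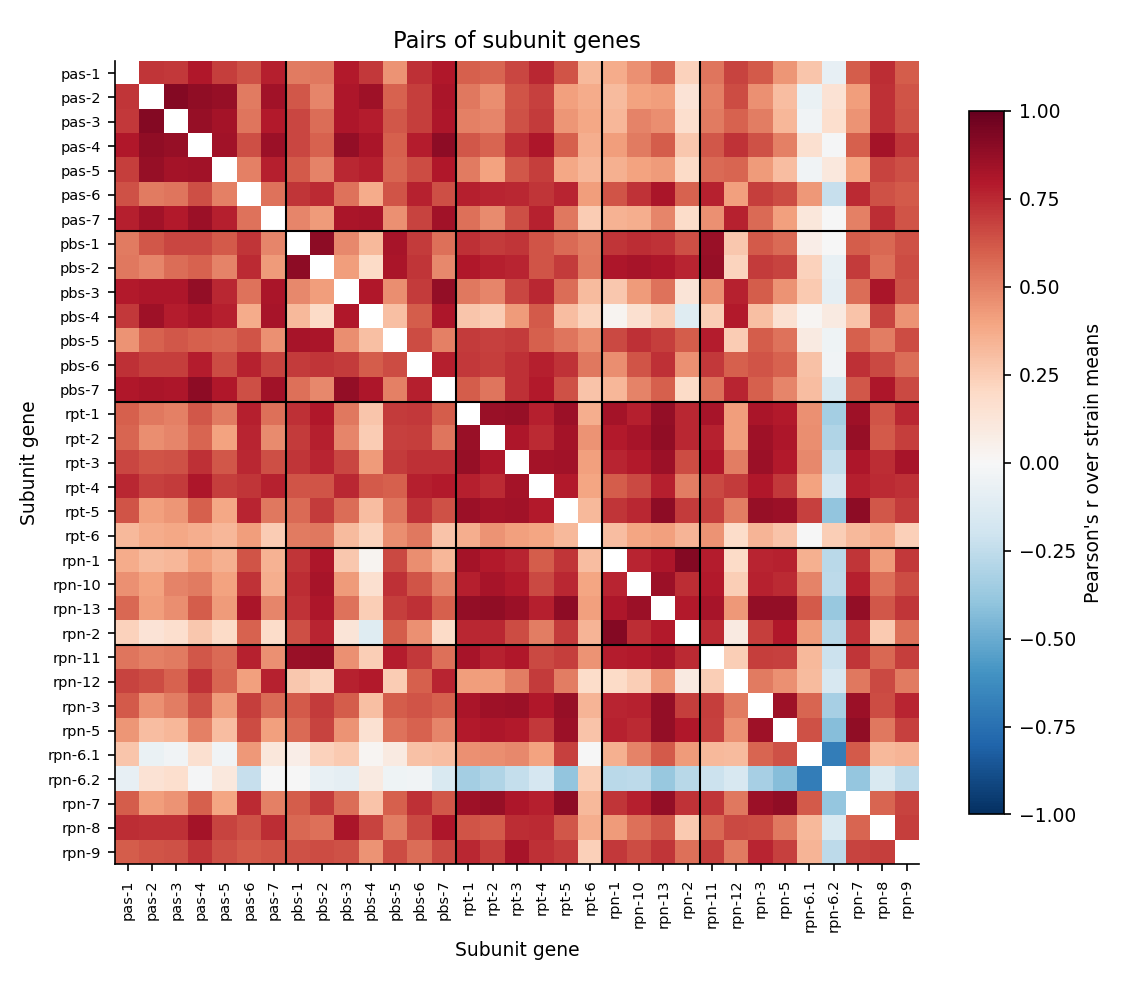
Pearson r over all strain means for each pair of members, with lines between the subcomplexes. Most of the map is positive, and the row of rpn-6.2 stands out as negative, down to −0.69 with rpn-6.1.

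Per length, in TPM, the median core gene lay 0.63 (log2) above the median regulatory gene, 1.54-fold, with an SD of 0.06 among strains and an H2 of 0.048. The H2 of this ratio was 0.115 with the sequencing pool regressed out. In counts, which are not per length, the direction turned, with the median core gene −0.17 relative to the median regulatory gene and an H2 of 0.174, both with CPM and with median-of-ratios factors. Strains ran from 0.46 in NIC1 to 0.85 in AB1. The value of AB1 fell to 0.68 without its replicate 1, the single culture used from its sequencing pool, and the next strain, XZ1515, had 0.81.

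The RPN-6 genes moved in opposite directions. Over the strain means, rpn-6.1 and rpn-6.2 had r = −0.69, the lowest of all 528 pairs, and r = −0.34 among cultures within strains. The sign was kept over single cultures within each of the 7 pools (−0.69 to −0.45). It was also kept over strain means under the other scalings, where the relation was weaker (−0.25 with raw TPM, −0.24 with CPM, −0.50 with median-of-ratios factors). The share of rpn-6.2 in the summed TPM of the pair was 20.1% in JU3140, 7.23% in NIC256 and 11.3% at the median strain. In JU3140 the cultures had 27.9, 24.8 and 24.8 TPM of rpn-6.2 beside 110.5, 88.9 and 107.4 TPM of rpn-6.1. In NIC256 they had 10.3 and 10.01 TPM of rpn-6.2 beside 137.5 and 123.6 TPM of rpn-6.1. The strain with most rpn-6.1, QX1794, had 134.6 and 143.4 TPM of rpn-6.1 beside 10.5 and 12.1 TPM of rpn-6.2. Whether reads were shared between the genes was not tested.

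Sperm, muscle and neuron transcripts all moved with this pair. The mean of 31 sperm genes, which encode the major sperm proteins and the fertilization proteins SPE-9, SPE-11 and SPE-41, had r = 0.748 with rpn-6.2 (Spearman's rho 0.802, with r = 0.757 once the 2 most distant strains in the sperm mean were left out). With rpn-6.1 it had r = −0.73 (rho −0.78). The mean of 8 body wall muscle genes had r = −0.74 with rpn-6.1 and 0.656 with rpn-6.2, and that of 8 neuron genes −0.65 with rpn-6.1 and 0.544 with rpn-6.2. Embryonic and germline genes went the other way, with r = 0.465 and 0.505 for rpn-6.1 and −0.54 and −0.45 for rpn-6.2. The relation of rpn-6.2 with sperm genes was 0.574 to 0.763 over single cultures within the 7 pools. Over strain means it was 0.456, 0.427 and 0.639 with raw TPM, CPM and median-of-ratios factors. JU3140 had the highest rpn-6.2 and the highest sperm mean of all strains and ranked 197th in rpn-6.1. NIC256 had the lowest rpn-6.2 and ranked 199th in the sperm mean. Summed sperm transcripts ran from 51.02 to 21384 TPM over the cultures. The part of sperm and of the other tissues in the opposed levels was not tested.

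**Figure D4:**
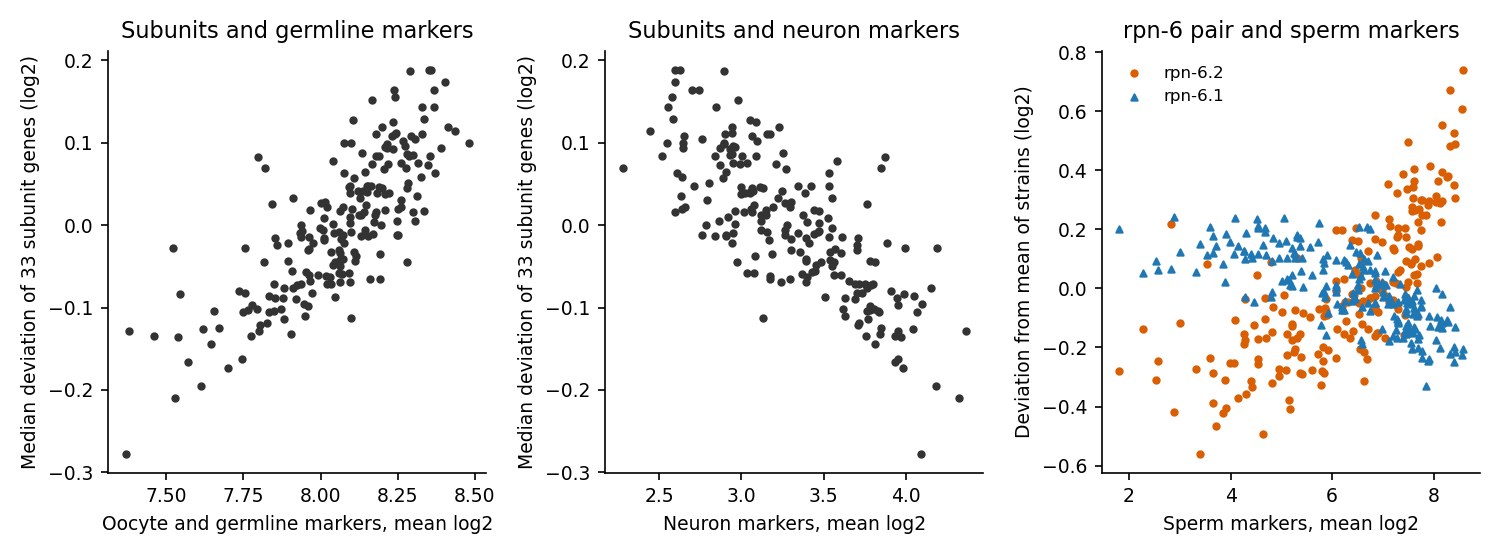
Each point is 1 strain. The panels plot the members' median deviation (log2) against the mean of the germline genes and against the mean of the neuron genes, and the deviations (log2) of rpn-6.2 and rpn-6.1 against the mean of the sperm genes. The members lie higher at a higher germline mean (r = 0.793) and lower at a higher neuron mean (r = −0.77), and the RPN-6 genes slope in opposite directions.

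As a group, the members went with the germline genes. Their median deviation per strain, the median of the 33 differences from each gene's mean, had an SD of 0.08 among strains, an H2 of 0.352 and a range of −0.28 to 0.19. It had r = 0.793 with the mean of 10 oocyte and germline genes such as *pgl-1*, *oma-1* and *rme-2* (rho 0.794, with r = 0.783 once the 2 most distant strains were left out). Neuron and muscle genes went the other way, with r = −0.77 for 8 neuron genes (rho −0.77, r = −0.76 without those most distant) and −0.57 for 8 body wall muscle genes (rho −0.58, r = −0.56). The signs of these 3 were kept under each scaling, at 0.929 to 0.956 for the germline, −0.93 to −0.64 for neurons and −0.76 to −0.72 for muscle. They were also kept over single cultures within the pools, at 0.685 to 0.864, −0.86 to −0.62 and −0.78 to −0.17. For the 31 sperm genes r was −0.42 (rho −0.45), and −0.71, −0.65 and −0.56 with raw TPM, CPM and median-of-ratios factors, but −0.76 to 0.07 over single cultures within the pools. The 2 male genes measured had r = −0.61 (rho −0.62). Yolk genes had r = 0.340 (6 genes) and embryonic genes 0.274 (12 of 14 measured).

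Over the cultures, summed levels ran from 1321 to 5257 TPM for the germline genes, from 236.2 to 489.7 TPM for the neuron genes and from 1691 to 11720 TPM for the muscle genes, none at 0. With the germline mean regressed out of the cultures, the median r among the members was 0.357. Among other complexes, the 8 genes of the CCT chaperonin, which folds actin and tubulin, had a mean with r = 0.714 to the members' median deviation, the 20 genes of the vacuolar ATPase, a proton pump, −0.65, and the 78 cytosolic ribosomal protein genes 0.058.

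The 10 other genes most like the members, by Pearson r of strain means with the members' median deviation over all strains, were the nuclear transport GTPase gene *ran-1* (0.849), the germline RNA-binding gene *cey-2* (0.847), *ztf-4* (0.829), the nuclear envelope gene *sun-1* (0.825), the nuclease gene *crn-1* (0.824), the profilin gene *pfn-1* (0.823), *W08F4.3* (0.818), the oocyte surface gene *egg-1* (0.813), the replication clamp gene *pcn-1* (0.811) and *T24D1.2* (0.810). Of these, *egg-1* is also in the germline list. Of 16227 genes that are not members, 1490 had r over 0.5 and 5615 had r under −0.5.

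In the contrasts of each strain with the mean of all others (limma, adjusted over all genes and strains), 640 of the 6831 tests of members were called, 9.37%, against 24.3% of all tests. This gap depended on the scaling. With CPM, 1785 of the 6831 member tests and 901875 of the 3365820 tests of all genes were called, which are similar shares. Of the 640, 329 were higher and 311 lower. Calls fell in 134 strains, with higher calls alone in 62, lower calls alone in 50 and both in 22, and 73 strains had none. The member called in most strains was rpn-6.1, higher in 21 and lower in 24, followed by rpn-6.2 with 39 strains and rpn-9 and rpt-5 with 37 each. The fewest calls were those of pbs-4, with 8. The strains described next are the 3 with most members called lower, the 3 with most called higher, and N2. All contrasts share the other strains.

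In NIC513, 26 of 33 members were called lower and none higher, 78.8%, against 16.0% of all genes called lower, while 6229 of 16260 genes were called higher. The median difference of the members was −0.28 on the log2 scale, while that of all genes was 0.26. All 6 ATPase genes and all 4 other base genes fell, with 17 of 19 regulatory and 9 of 14 core genes. The base scaffold rpn-1 had 78.97, 121.7 and 90.9 TPM in NIC513, against 66.8, 154.5 and 259.6 TPM at the lowest, median and highest of the 556 other cultures. It overlapped them, with 20 of the 556 at or below its highest culture, and differed by −0.69 (SE 0.10, adjusted p = 1.85e-09). Less overlap was seen for rpt-5, at 139.1, 150.5 and 142.4 TPM in NIC513 against a median of 188.1 TPM, where 2 of the 556 lay at or below its highest culture (difference −0.39, SE 0.05, adjusted p = 6.06e-12). The beta gene pbs-2 had 158.0, 181.3 and 167.7 TPM in NIC513 against a median of 245.7 TPM, with 8 of the 556 at or below (difference −0.53, SE 0.08, adjusted p = 4.14e-08). The lid gene rpn-6.1 had a difference of 0.00 (adjusted p = 0.993).

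In CX11254, 22 of 33 members were called lower and none higher, 66.7%, against 16.9% of all genes called lower, while 8936 genes were called higher. The members' median difference was −0.21, and that of all genes 0.54. Here the alpha ring led, with 7 of 7 genes lower, while 1 of the 4 other base genes was. The alpha gene pas-1 (V:14421566-14422618, minus strand) had 185.3, 187.9 and 196.0 TPM in CX11254, against 196.2, 235.1 and 334.3 TPM at the lowest, median and highest of the 556 others. Its groups did not overlap (difference −0.32, SE 0.06, adjusted p = 7.28e-07). Its neighbour in the ring, pas-2, differed by −0.34 (SE 0.10, adjusted p = 7.89e-03).

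In ECA812, 19 of 33 members were called lower and none higher, 57.6%, against 12.7% of all genes called lower and 6205 genes called higher, with a median difference of −0.20 for the members and 0.26 for all genes. Calls were in 15 of 19 regulatory and 4 of 14 core genes, 1 of them in the alpha ring. The lid gene rpn-3 had 148.0, 162.7 and 152.7 TPM in ECA812, against a median of 193.8 TPM, with 6 of the 556 others at or below its highest culture (difference −0.33, adjusted p = 1.66e-10). Cultures of this strain differed, with median deviations of −0.34, −0.02 and −0.21 over the members, against −0.30, −0.27 and −0.30 in NIC513 and −0.22, −0.20 and −0.19 in CX11254.

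In these 3 strains, germline markers moved with the members and neuron markers moved against them. Markers of other tissues moved in some of the strains. The germline mean was lower by 0.69, 0.53 and 0.45 (log2) in NIC513, CX11254 and ECA812, the lowest of all strains in NIC513 and ranks 203 and 199 in CX11254 and ECA812, with 10, 7 and 10 of the 10 genes called lower, and 1 called higher in CX11254. The neuron mean was higher by 0.79, 1.02 and 0.88, at ranks 7, 2 and 4 from the top. The muscle mean was the highest of all strains in CX11254, with 8 of 8 genes called higher, 5 of 8 were called higher in ECA812 and 0 of 8 in NIC513, where the mean differed by −0.04. Yolk genes were called lower in NIC513 (6 of 6) and ECA812 (3 of 6). Sperm genes were called higher in CX11254 (26 of 31), and both male genes measured in CX11254 and ECA812. Higher calls were common in these strains, with 6229, 8936 and 6205 of all 16260 genes in NIC513, CX11254 and ECA812. In the CCT chaperonin, 8, 6 and 8 of 8 genes were called lower in NIC513, CX11254 and ECA812. Over all genes, 16.0%, 16.9% and 12.7% were called lower in these strains. The part of these markers in the lower levels was not tested.

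In JU394, 18 of 33 members were called higher and none lower, 54.5%, against 6.66% of all genes called higher, while 2915 genes were called lower. The members' median difference was 0.19 and that of all genes −0.15. Calls were spread over the complex, in 11 regulatory and 7 core genes. The lid gene rpn-3 had 214.9, 211.4 and 244.0 TPM in JU394, above the median of 193.8 TPM of the other cultures but within their range. In NIC277, 17 of 33 members were called higher and none lower, 51.5%, against 12.3% of all genes called higher and 5561 genes called lower, with a median difference of 0.18 for the members and −0.23 for all genes. The calls were in 14 of 19 regulatory genes and 3 of 14 core genes. The base scaffold rpn-2 had 153.6, 262.3 and 123.3 TPM in NIC277, so that its cultures lay on both sides of the other strains' median of 137.1 TPM. In JU1200, 15 of 33 members were called higher and none lower, 45.5%, against 8.48% of all genes called higher and 1447 genes called lower, with a median difference of 0.15 for the members and −0.07 for all genes. The opposite division was seen, with 9 of 14 core genes, 6 of them alpha genes, and 6 of 19 regulatory genes. The alpha gene pas-2 had 450.1, 417.4 and 374.4 TPM in JU1200, against a median of 324.9 TPM in the other cultures.

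Beside these, the germline mean was higher by 0.23 in JU394 (4 of 10 genes called higher), 0.35 in NIC277 (7 of 10) and 0.11 in JU1200 (0 of 10). The neuron mean was lower by 0.41, 0.71 and 0.33, with 2, 7 and 1 of 8 genes called lower. Of the 8 muscle genes, 0, 7 and 0 were called lower. Over all 16260 genes, 6.66%, 12.3% and 8.48% were called higher, and 2915, 5561 and 1447 genes lower, in the same order. All 31 sperm genes were called lower in NIC277. In the CCT chaperonin, 5, 5 and 2 of 8 genes were called higher in JU394, NIC277 and JU1200. The part of these markers was not tested.

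The laboratory strain N2 had 9 of 33 members called higher, 27.3%, against 5.30% of all genes, and 1 lower, against 9.73% of all genes. The one lower was rpn-6.2, with a difference of −0.31, which was not called with raw TPM, CPM or median-of-ratios factors, with all samples or with the pool as a covariate. The median difference was 0.10 for the members and −0.08 for all genes. The ATPase gene rpt-5 had 206.96, 213.2 and 209.0 TPM in N2, against a median of 187.7 TPM. The germline mean differed by 0.02 in N2, with 0 of 10 genes called. The neuron mean was lower by 0.41, with 2 of 8 genes called lower, and 5 of 8 muscle genes were called lower.

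The direction of the median difference in these 7 strains was kept under each of 10 other settings and with replicate 1, 2 or 3 left out of all strains with 3 cultures, but sizes and counts moved. Adjusting p-values within each strain, or dropping genes under a mean of 1 TPM, cannot change these differences, and other pseudocounts barely did. All strains but N2 were picked for their calls in that direction in the same data, so the kept direction is no independent support. Over the 10 settings the median difference ran from −0.52 to −0.25 in NIC513, −0.64 to −0.20 in CX11254, −0.46 to −0.19 in ECA812, 0.18 to 0.33 in JU394, 0.16 to 0.41 in NIC277, 0.13 to 0.20 in JU1200 and 0.09 to 0.22 in N2. The members called in that direction ran from 23 to 33, 16 to 33 and 12 to 33 lower in NIC513, CX11254 and ECA812, with all 33 called lower in each with CPM. They ran from 10 to 32 higher in JU394, 13 to 28 in NIC277, 6 to 18 in JU1200 and 7 to 15 in N2. Calls over all 16260 genes moved as well. With CPM, 4076, 5002 and 4300 genes were called lower in NIC513, CX11254 and ECA812, against 2603, 2756 and 2073 in the main setting. Genes called higher with CPM were 2464 in JU394, 4418 in NIC277, 1361 in JU1200 and 1337 in N2, against 1083, 1998, 1379 and 861. Without replicate 2, NIC277 had 0 members called higher and 1 called lower, without replicate 3, JU394 had 1 called higher, and without replicate 1 or 2, JU1200 had 2 or 3 called higher. N2 had 1 member called higher without replicate 2 and 3 without replicate 3. The lower calls were 10 to 23 in ECA812, 13 to 16 in CX11254 and 20 to 22 in NIC513. In NIC277, replicate 2 had a core-to-regulatory ratio of 0.26 (log2), against 0.62 and 0.72 in its other cultures. With the sequencing pool as a covariate, 25, 22 and 21 members were called lower in NIC513, CX11254 and ECA812, and 21, 18, 17 and 8 higher in JU394, NIC277, JU1200 and N2. Whether these strains differ from each other was not tested.

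**Figure D5:**
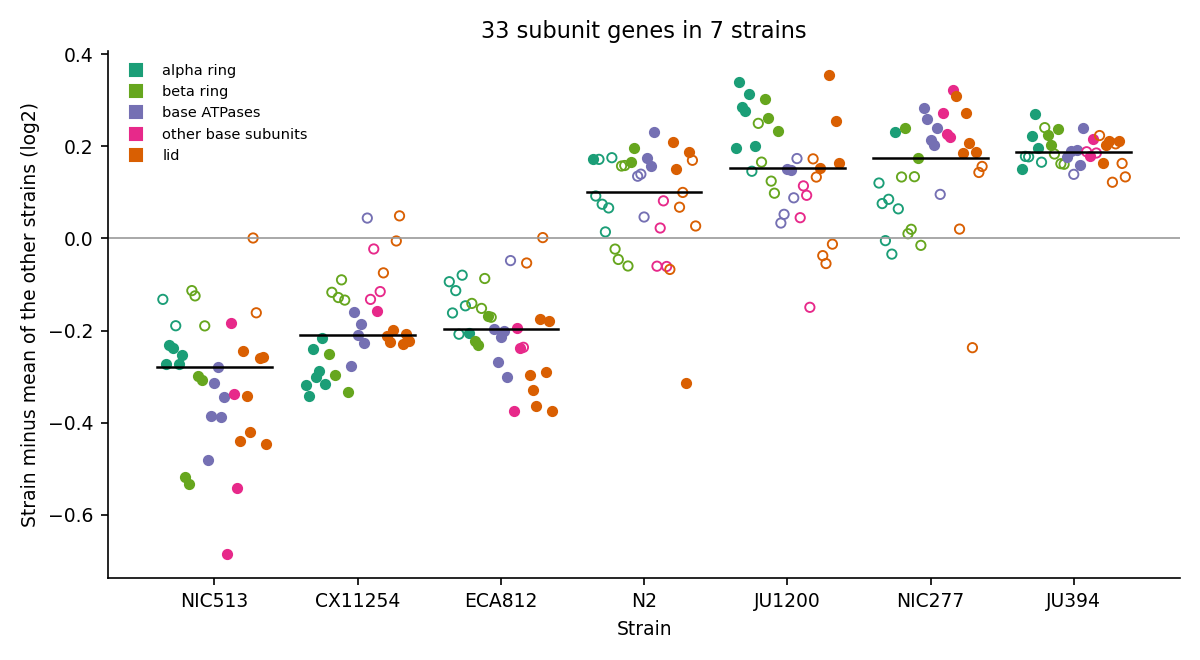
Difference (log2, strain minus the mean of all others) of each of the 33 members in 7 strains, with filled points for adjusted p under 0.05 and a black line at the median. The members of NIC513, CX11254 and ECA812 lie mostly below 0 (medians −0.28, −0.21 and −0.20) and those of JU1200, NIC277 and JU394 mostly above (0.15, 0.18 and 0.19).

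Other genes of the pathway were taken from lists of genes that bind the proteasome, deliver substrates to it, activate ubiquitin, process SKN-1A or respond to misfolded protein. All those measured were called by the F-test, 6 of 6, 8 of 8, 3 of 3, 6 of 6 and 8 of 8 in that order, as were 99.5% of all genes. Their median H2 was 0.630, 0.435, 0.379, 0.4001 and 0.620, each above the members' 0.293. The genes of highest H2 over the 5 lists were *npl-4.1* (0.959), *npl-4.2* (0.955), which encode the cofactor NPL-4 of the segregase CDC-48, and *ubh-4* (0.857), of a deubiquitinase that binds the proteasome. The strain means of *npl-4.1* ran from −0.32 in ECA745 to 6.40 in AB1 on the log2(TPM + 0.5) scale, and *npl-4.2* was listed at 0 TPM in each culture of JU1896 and had its highest mean, 6.52, in JU2007. Genes this alike can share reads, so the levels of the NPL-4 genes are uncertain. The means of *ubh-4* ran from 3.80 in ECA703 to 7.25 in JU1568, and its r with the members' median deviation was 0.071.

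Lists that followed the members were ubiquitin activation (r of the list mean 0.772), processing of SKN-1A (0.536) and substrate delivery (0.489), against 0.325 for genes that bind the proteasome and −0.08 for stress genes. In NIC513, 6 of the 8 delivery genes, 4 of the 6 binding genes and 2 of the 3 ubiquitin genes were called lower, with 1 binding gene called higher. There, 3 of the 6 SKN-1A processing genes and 4 of the 8 stress genes were also called lower, with 2 stress genes higher. Over all 16260 genes in NIC513, 16.0% were called lower and 6229 genes higher. In CX11254 and ECA812, 4 and 3 delivery genes were called lower, with 2 called higher in CX11254. In each of these strains, 2 binding genes and 4 stress genes were called lower and 2 SKN-1A processing genes higher. CX11254 also had 2 stress genes higher and 1 SKN-1A processing gene lower, and ECA812 had 1 ubiquitin gene lower. Over all 16260 genes, 16.9% and 12.7% were called lower, and 8936 and 6205 genes higher. In NIC277, 6 delivery genes were called higher and 1 lower, with 2 binding genes, 2 ubiquitin genes and 3 stress genes called higher. Over all 16260 genes there, 12.3% were called higher and 5561 genes lower. JU394, JU1200 and N2 had 3, 2 and 1 delivery genes and 1, 2 and 3 binding genes called higher. Of the SKN-1A processing genes, 1, 3 and 0 were called higher in these strains. Over all genes, 6.66%, 8.48% and 5.30% were called higher there.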

How the data were processed

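The members, the gene lists and the tests were chosen with earlier results of these data known. The authors trimmed the reads with fastp 0.20.0 and pseudoaligned them with Kallisto 0.44.0 to transcriptomes carrying each strain's variants. They deposited estimated counts and raw TPM of 65173 transcripts and 157 transposable elements for 609 samples, without normalization between samples. Strain JU2800, with 1 sample, was left out. Transcripts were joined to genes by ID (58525) or sequence name (6633), and 15 were not joined. Transcripts in hyper-divergent regions, filtered by the study, were kept here.

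Transcripts were called expressed with at least 5 normalized counts in all samples of at least 10 strains, using size factors as in sleuth. Samples were selected by distances of DESeq2's variance-stabilized values, from 608 to 559. TPM was divided by factors over expressed transcripts, summed per gene and transformed with a pseudocount of 0.5. Strains were compared with edgeR's quasi-likelihood F-test on the deposited estimated counts, rounded, with the dispersion trend from 200 genes, and with limma contrasts of each strain, both with Benjamini-Hochberg adjustment (threshold 0.05). H2 was estimated by restricted maximum likelihood. Relatedness among strains was not modelled. Cultures were grown independently, and replicate numbers only name them. Counts are depth, not independent molecules, and the spread among cultures includes counting error.

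Members were named with sample values by highest and lowest H2 and level, strains by most calls, and the genes of highest H2 over the 5 pathway lists together. Alternatives were other scalings, all samples, pool, marker means, single transcripts and leaving out each replicate. The rule on transcripts with H2 over 0.5 in genes under 0.3 found 0. Scalings by raw TPM for H2 and calls, median-of-ratios factors, the germline mean and single pools were chosen after seeing the data. The analysis used R 4.3.3, edgeR 4.0.16, limma 3.58.1, DESeq2 1.42.0, Python 3.11.15, numpy 2.4.6, pandas 2.3.3, scipy 1.17.1 and matplotlib 3.10.9.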

Additional observations from a re-analysis of the deposited data

How the results depend on the processing

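The median H2 of the members (0.293) was 0.204 with all samples, 0.480 with raw TPM, 0.579 with CPM, 0.494 with median-of-ratios factors and 0.174 for single transcripts, and 0.287 to 0.336 with 1 replicate left out. The median r (0.612) was 0.569 with all samples, 0.883 with raw TPM, 0.907 with CPM, 0.846 with median-of-ratios factors, 0.545 with the sperm, yolk and embryo means regressed out, 0.357 with the germline mean regressed out, and 0.589 to 0.607 with 1 replicate left out. Over single cultures, and not strain means, it was 0.481, 0.700, 0.535, 0.496 and 0.548 in pool01, pool04, pool06, pool07 and pool08. Of the 6831 contrasts of members, 640 were called, against 417 with all samples, 991 with the pool as covariate and 1785 with CPM. Raw TPM gave 1031, median-of-ratios factors 1297, and leaving 1 replicate out 363 to 501. Of the 3365820 contrasts of all genes, 817684 were called, against 562005 with all samples and 918503 with the pool. CPM gave 901875, raw TPM 731383, median-of-ratios factors 858211, and leaving 1 replicate out 591896 to 608776. The shares of members and of all genes were thus similar with CPM, unlike in the main setting. The F-test over strains called 33 members with edgeR under each alternative, and with limma 32 over expressed transcripts alone and 27 without replicate 1. The cause of these shifts was not tested. Of the values for single members and strains, 219 stayed close to their main value and 90 moved. A turn of direction was looked for only in the r of the RPN-6 genes and the median differences of strains. None of these turned, although some settings cannot change the median differences. H2 values and counts of calls could not be scored as turned.

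No paired analysis was possible because the replicate numbers of the cultures were given here in the order of the samples and only name them. The sequencing pool, which goes in part with these numbers, was fitted as a covariate instead. Depth limited no member, with at least 199.2 estimated counts in each culture. The level of a member rests on the scaling of its library, and the median residual SD of 0.116 (log2) among 2 or 3 cultures limits what a strain contrast can show.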
